A study of Saccharomyces cerevisiae with 6 samples.

Results

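Genes for phosphate uptake, phosphatases and polyphosphate synthesis were followed in 3 strains of the budding yeast Saccharomyces cerevisiae. The 10 genes, listed as targets of the transcription factor Pho4 together with PHO4 itself, are PHO84, PHO89, PHO5, PHO8, SPL2, VTC1, VTC2, VTC3, VTC4 and PHO4. They were matched by systematic name to the deposited tables, and 9 of the 10 were found among 6032 listed genes. PHO5 was not analysed here. Transcripts were measured by RNA-seq of mRNA from cells in a synthetic medium without uracil, with 20 g/l glucose. The strains carried ASK10 with the M475R substitution (M475R), no ASK10 (deletion), or wild-type ASK10 (WT), and the ASK10 protein acts on the plasma membrane glycerol channel Fps1. The libraries were M475R replicates 1 and 2, deletion replicate 2, and WT replicates 1 and 2, while the first deletion replicate was not used. The labels give neither the phosphate content of the medium nor whether an allele sat on a plasmid or in the genome, and they do not say whether replicates were separate cultures. The spread behind each p-value is that among these libraries and may be purely technical.

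Yeast senses phosphate through the PHO pathway. When phosphate runs short, the inhibitor Pho81 stops the cyclin-dependent kinase complex Pho80-Pho85, unphosphorylated Pho4 stays in the nucleus, and with its partner Pho2 it switches on transporters, secreted phosphatases and polyphosphate synthesis. When phosphate is ample, the high-affinity transporter gene PHO84 and the regulator gene SPL2 are kept low. The VTC complex in the vacuole membrane makes polyphosphate, the main phosphate store of the cell.

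Depth differed greatly between libraries and limits most of what follows. Total expected counts were 4155203 and 71228 in M475R replicates 1 and 2, 117680 in the deletion, and 102612 and 51576 in WT replicates 1 and 2. Levels are given as CPM, counts scaled to the total of the tested genes after TMM normalisation, with exact Poisson intervals, or as the authors' FPKM, which also divides by gene length. A level of 3 counts, used as the detection floor, was 0.784 and 45.2 CPM in M475R, 28.5 CPM in the deletion, and 32.3 and 63.8 CPM in WT. ASK10 itself had 567 and 4 counts in M475R, 0 in the deletion and 5 and 7 in WT. The M475R pair differed by no more than sampling noise (chi-square of 1.024 per degree of freedom, p = 0.18), as did the WT pair (1.004, p = 0.443). Each pair is therefore read as no more than 1 sample of its strain, and the pooled ratios join it so. The fit does not: it takes the libraries singly, so its p-values set library against library, not strain against strain.

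The phosphate transporter genes were weakly expressed in M475R replicate 1, the deepest library. PHO84 encodes the high-affinity phosphate-proton symporter of the plasma membrane. It had 134 and 1 counts in M475R, 7 counts in the deletion, and 7 and 3 counts in WT. These counts equal 35 (29.3 to 41.5) and 15.1 (0.381 to 83.9) CPM in M475R, 66.6 (26.8 to 137) CPM in the deletion, and 75.4 (30.3 to 155) and 63.8 (13.2 to 186) CPM in WT. Both M475R values lay below the other 3, but the single count of M475R replicate 2 has an interval that spans them all. Of all tested genes, 26.1% had both M475R libraries below both WT libraries. In WT, PHO84 had the same 7 and 3 counts as PHO8, at 39.7 and 33.8 FPKM beside 41.2 and 35.1 FPKM.

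The pooled PHO84 ratio was 0.485 for M475R over WT (exact 95% interval 0.256 to 1.04) and 0.521 for M475R over the deletion (0.246 to 1.32). For the deletion over WT it was 0.932 (0.301 to 2.71). A difference was not detectable at this depth in any of the 3 comparisons. In these bulk samples, fewer expressing cells and less RNA per cell cannot be told apart, here and for every gene below. PHO84 did not pass the filter on low counts, and without that filter its log2 fold change for M475R against WT was -1.07 ± 0.60 SE (edgeR quasi-likelihood test, adjusted p = 0.365). An annotated antisense RNA gene, YNCM0001W, overlaps PHO84, and strand use in counting was not given in the sources used here, so reads from the 2 cannot be told apart.

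PHO89 encodes the sodium-phosphate cotransporter, which works at alkaline pH. It was read 36 times in M475R replicate 1, which is 9.41 CPM (6.59 to 13), and 0 times in M475R replicate 2, the deletion and both WT libraries. That level lies under the floor of each of those 4 libraries, so their counts of 0 do not separate the strains, and no fold is given.

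SPL2 encodes a small protein that restrains low-affinity phosphate uptake and is strongly induced in starved cells. It had 2 and 0 counts in M475R, 1 count in the deletion and 0 in both WT libraries. The 2 counts among 4155203 in M475R replicate 1 correspond to 0.523 CPM (0.0633 to 1.89). These 2 counts lie under the floor of 3 counts even in that library. Its depth still bounds the transcript there as low, at 1.22 FPKM (0.148 to 4.41), the level of percentile 1.62 among listed genes. The 1 count in the deletion equals 9.51 CPM (0.241 to 53), also under the floor. The pooled ratio of M475R over the deletion was 0.054 (0.00281 to 3.19), so the strains are not separated.

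PHO4, the gene of the activator, and PHO8, the gene of the vacuolar alkaline phosphatase, were expressed in every library. PHO4 had 60.6 and 105 CPM in M475R, 95.1 CPM in the deletion, and 75.4 and 149 CPM in WT. These values overlap between M475R and WT, and the WT values rest on 7 counts in each library. The pooled PHO4 ratio of M475R over WT was 0.614 (0.359 to 1.14, adjusted p = 0.564), and that of the deletion over WT was 0.951 (0.378 to 2.3, adjusted p = 0.985).

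PHO8 had 119 and 60.2 CPM in M475R, 133 CPM in the deletion, and 75.4 and 63.8 CPM in WT. M475R replicate 1 and the deletion were the high libraries, and M475R replicate 2 lay below both WT libraries. The pooled ratio was 1.66 (0.893 to 3.48) for M475R over WT, 0.889 (0.525 to 1.64) for M475R over the deletion and 1.86 (0.77 to 4.69) for the deletion over WT. None passed (adjusted p = 0.255, 0.871 and 0.732), and each interval includes 1.

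**Figure D1:**
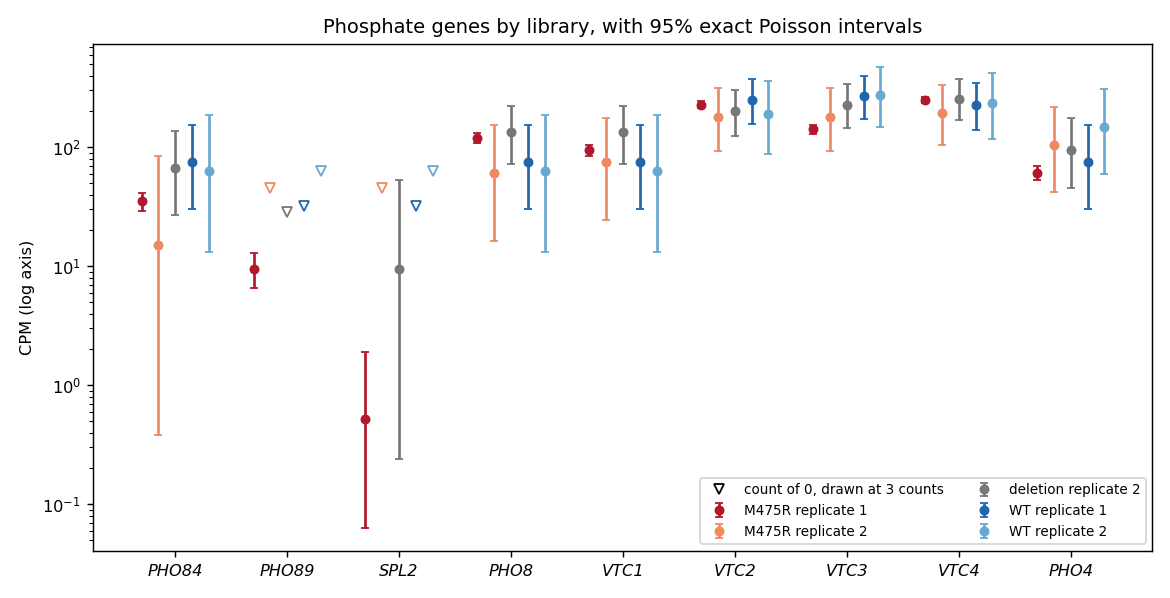
CPM on a log axis for 9 phosphate genes in M475R, deletion and WT libraries, with 95% exact Poisson intervals, where open triangles mark a count of 0 at the level of 3 counts. VTC3 stands at 142 and 181 CPM in M475R, below the deletion (228) and WT (269 and 276). PHO89 has counts in the deep M475R library only, and SPL2 has 2 counts there and 1 in the deletion.

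The VTC genes encode the vacuolar polyphosphate polymerase. VTC4 holds the catalytic core, VTC1 is a small membrane subunit, and VTC2 and VTC3 are related alternative subunits, the complex with VTC3 sitting at the vacuole and that with VTC2 also at other membranes. VTC3 alone among the tested members passed the test. It had 544 and 12 counts in M475R, 24 in the deletion, and 25 and 13 in WT. Those counts equal 142 (131 to 155) and 181 (93.4 to 316) CPM in M475R, 228 (146 to 340) CPM in the deletion, and 269 (174 to 397) and 276 (147 to 472) CPM in WT. Both M475R libraries were below the deletion library and below both WT libraries. Of all tested genes, 26.1% had both M475R libraries below both WT libraries. No share is given for lying below the deletion as well.

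VTC3 fell to 0.526 times WT in M475R (exact 95% interval 0.378 to 0.751), with a log2 fold change of -0.93 ± 0.26 SE (edgeR quasi-likelihood test, Benjamini-Hochberg adjusted p = 0.00419). Against the deletion, the M475R ratio was 0.626 (0.416 to 0.985) with a log2 fold change of -0.68 ± 0.32 SE, which did not pass (adjusted p = 0.19). The deletion over WT gave 0.841 (0.483 to 1.44, adjusted p = 0.934). The first 2 comparisons share the M475R libraries. The call against WT rests on the deep library and on WT replicate 1. Without M475R replicate 1 the log2 fold change was -0.54 (adjusted p = 0.558), and without WT replicate 1 it was -0.94 (adjusted p = 0.28). It was also lost with DESeq2 (-0.84, adjusted p = 0.351), with a biological CV fixed at 20% (-0.85, adjusted p = 0.323) and with limma on log2(FPKM + 1) (-0.73, adjusted p = 0.284). In the authors' deposited tables, the VTC3 log2 ratio was -0.90 for M475R replicate 1 over WT replicate 1 (authors' FDR 0.0531), -0.945 for M475R replicate 1 over WT replicate 2 (0.307) and -0.58 for M475R replicate 2 over WT replicate 2 (0.93). In the authors' deposited filtered lists, 0 members stood.

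VTC2 did not pass. It had 227 and 181 CPM in M475R, 200 CPM in the deletion, and 248 and 191 CPM in WT. The M475R and WT values interleave, and the pooled ratio of M475R over WT was 0.991 (0.697 to 1.46, adjusted p = 0.982). The intervals for M475R over the deletion (ratio 1.13, 0.737 to 1.84) and the deletion over WT (0.874, 0.479 to 1.56) also included 1.

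VTC4 did not pass either. It had 250 and 196 CPM in M475R, 257 CPM in the deletion, and 226 and 234 CPM in WT, with the M475R libraries on either side of the WT pair. The ratio was 1.09 (0.767 to 1.6) for M475R over WT, 0.971 (0.663 to 1.48) for M475R over the deletion and 1.12 (0.647 to 1.94) for the deletion over WT. The lower bound for M475R over WT, 0.767, lies above the VTC3 ratio of 0.526.

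VTC1 had 94.3 and 75.3 CPM in M475R, 133 CPM in the deletion, and 75.4 and 63.8 CPM in WT. The deletion library was the highest, on 14 counts, and M475R replicate 2 lay between the WT libraries. Its ratio was 1.32 (0.707 to 2.77) for M475R over WT, 0.706 (0.415 to 1.3) for M475R over the deletion and 1.86 (0.77 to 4.69) for the deletion over WT. None of the 3 passed (adjusted p = 0.644, 0.581 and 0.77).

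**Figure D2:**
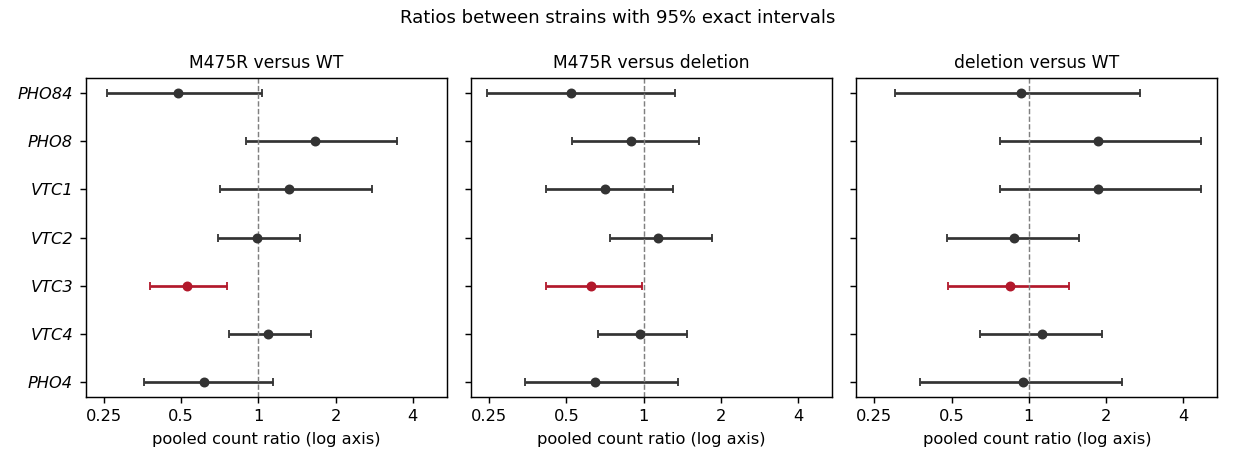
Pooled count ratios between strains on a log axis for the 7 phosphate genes with counts in every strain, with exact 95% intervals and VTC3 in red. The VTC3 interval lies below 1 for M475R over WT (0.378 to 0.751) and for M475R over the deletion (0.416 to 0.985), and the other intervals cross 1.

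The balance between VTC2 and VTC3 within a library does not depend on scaling between libraries. It was examined after the values were seen and is given as a description. VTC3 made up 38.5% (95% Clopper-Pearson interval 35.9 to 41.1) and 50% (29.1 to 70.9) of the joint VTC2 and VTC3 counts in M475R replicates 1 and 2. Its share was 53.3% (37.9 to 68.3) in the deletion, and 52.1% (37.2 to 66.7) and 59.1% (36.4 to 79.3) in WT. The pooled shares were 38.7% (36.1 to 41.2) in M475R and 54.3% (41.9 to 66.3) in WT. The deep M475R library gave the lowest share, and the 24 counts of M475R replicate 2 could not separate it from either.

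By length-scaled level, VTC1 had the highest value of the 4 VTC transcripts in every library, but its interval stood clear of the others in M475R replicate 1 and the deletion only. It overlapped them in M475R replicate 2 and in both WT libraries, where it rests on 5, 7 and 3 counts. It took 51.1% and 48.4% of the summed VTC FPKM in M475R, 57.3% in the deletion, and 41.6% and 38.8% in WT. VTC3 took 10.5% and 15.8% in M475R, 13.4% in the deletion, and 20.1% and 22.8% in WT. The summed VTC level was 505 and 432 FPKM in M475R, 617 FPKM in the deletion, and 491 and 447 FPKM in WT, so the M475R and WT sums overlapped.

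**Figure D3:**
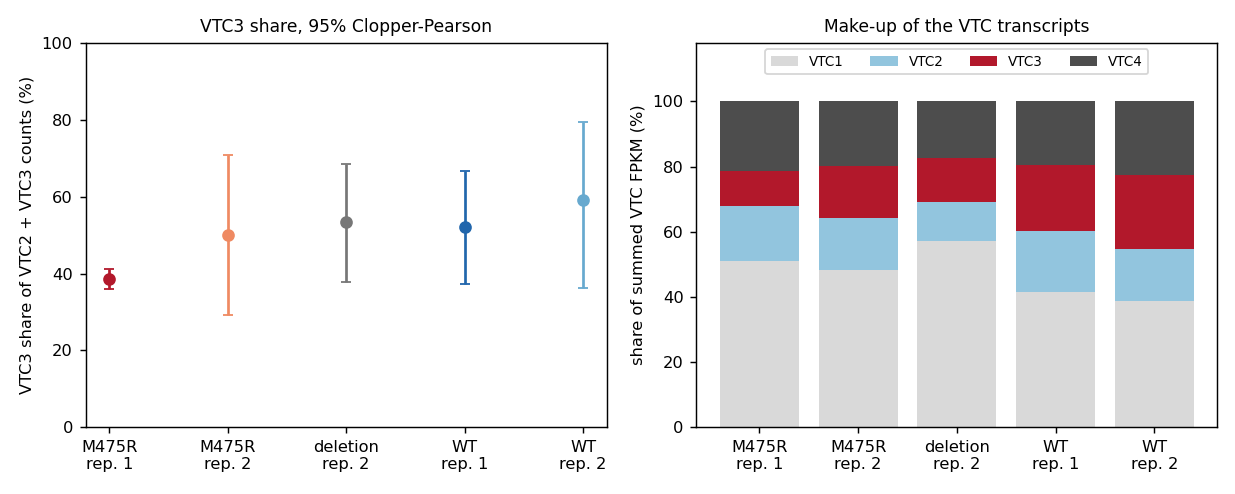
Left, VTC3 share (%) of VTC2 and VTC3 counts per library with 95% Clopper-Pearson intervals; right, share (%) of each VTC gene in the summed VTC FPKM per library. The VTC3 share of counts is 38.5% and 50% in M475R, 53.3% in the deletion, and 52.1% and 59.1% in WT.

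The deep M475R library gives an order of levels per length among the 9 genes. VTC1 stood highest at 258 FPKM (232 to 286), above VTC4 at 109 (102 to 116) and VTC2 at 85.5 (80 to 91.4). PHO8 at 66.4 (60.5 to 72.8), PHO4 at 62.8 (55 to 71.4) and VTC3 at 53 (48.7 to 57.7) followed, and in this run each neighbouring pair had overlapping intervals. PHO84 at 18.8 FPKM (15.7 to 22.2) was apart from VTC3 above and from PHO89 below, at 5.16 (3.61 to 7.14). SPL2 came last, and its interval overlapped that of PHO89. Among listed genes of that library, VTC1 was at percentile 88.2, VTC3 at 50, PHO84 at 17.5 and PHO89 at 5.7.

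That order was not the same throughout. In WT, VTC3 stood at 98.7 and 102 FPKM, close to VTC4 at 96.4 and 100 FPKM, and in the deletion it stood at 82.6 FPKM against 108 FPKM for VTC4. In M475R the VTC3 level was 53 and 68.2 FPKM, against 109 and 85.9 FPKM for VTC4. Intervals of the shallow libraries overlap for VTC3 and VTC4 in every case.

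**Figure D4:**
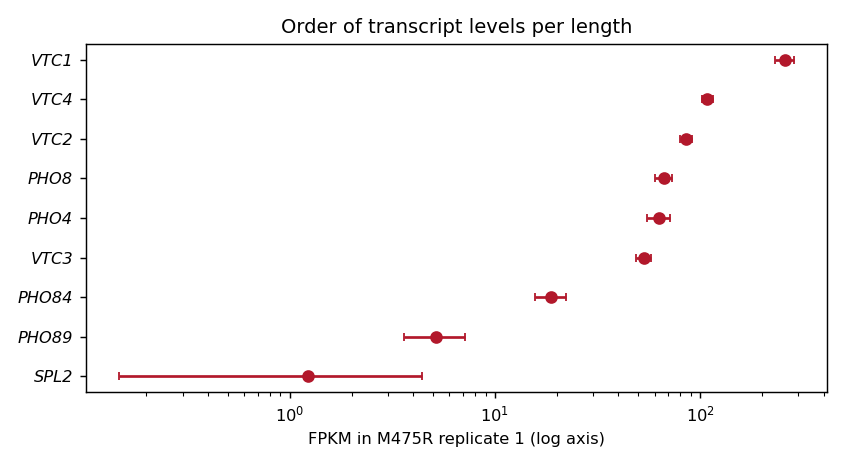
FPKM on a log axis of the 9 phosphate genes in M475R replicate 1, the deep library, with 95% exact Poisson intervals. Levels run from 258 FPKM for VTC1 to 1.22 FPKM for SPL2, with PHO84 at 18.8 FPKM apart from its neighbours.

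Of the 9 listed members, 6 passed the filter on low counts, and PHO84, PHO89 and SPL2 did not. With 1 deletion library, a gene needed to reach the limit in 1 library, so it could enter through the strain where it was high. VTC1 entered through the deletion library alone, on 14 counts, and PHO8 through that library and M475R replicate 1. PHO4 entered through M475R replicate 2 and WT replicate 2, where its CPM was highest, on 7 counts in each. For M475R against WT, 0 of the 6 were called higher and 1 lower. Over all 2909 tested genes 8.46% were called higher and 10.1% lower, so the members' share is near the background. The median log2 fold change of the 6 was 0.06, beside 0.01 for all tested genes. Both M475R libraries lay below both WT libraries for 2 of the 9 listed members (PHO84 and VTC3), of which 1 was tested, where 26.1% of tested genes did so.

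For M475R against the deletion, edgeR called 0 of the 6 members, against a background of 10.3% of genes called. VTC3 alone had an unadjusted p under 0.05, a limit for which no share over all genes is given. The median log2 fold change of the 6 members was -0.34, beside 0.01 for all tested genes. It includes VTC1 (-0.51) and PHO8 (-0.17), which passed the filter wholly or partly through the deletion library, where they were high. No shift of the members is read from it. For the deletion against WT, edgeR again called 0 of 6, where 0.688% of genes were called. VTC1 had an unadjusted p under 0.05 with limma, and no member had one with edgeR or DESeq2. No share over all genes is given for that limit. The VTC1 log2 fold change was 0.90 in edgeR and 0.91 with limma. The median of the members was 0.03, beside -0.002 for all tested genes, and it also includes VTC1 and PHO8. DESeq2 and limma called 0 members in each of the 3 comparisons. For M475R against WT, DESeq2 gave an adjusted p for VTC2, VTC3 and VTC4 only. For M475R against the deletion it gave none of the members an adjusted p. Members without an adjusted p could not be called by DESeq2.

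Wider lists covered phosphate sensing, other Pho4 targets, low-affinity transport and membrane genes, polyphosphate turnover with the VTC subunit gene VTC5, and other phosphatases. Of their 35 genes, 34 were listed and 18 tested. For M475R against WT, 1 was called higher and 0 lower (median log2 fold change -0.17), beside 8.46% higher and 10.1% lower of all tested genes. For M475R against the deletion, 1 was higher and 0 lower (median -0.02), beside 10.3% of all tested genes called. For the deletion against WT, edgeR called 0 of the 18, beside 0.688% of all tested genes called, and DESeq2 called 0. KCS1 alone had an unadjusted p under 0.05 in edgeR, a limit for which no share over all genes is given.

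The gene that passed was HOR2, also named GPP2, which encodes a glycerol-3-phosphatase and also belongs to glycerol synthesis. It had 1127 and 18 counts in M475R, 12 in the deletion, and 9 and 4 in WT. Its level was 387 and 360 FPKM in M475R, 145 FPKM in the deletion, and 125 and 111 FPKM in WT. Both M475R values lay above the others, but those outside M475R replicate 1 rest on 4 to 18 counts. No share over all genes is given for that order. HOR2 was 3.17-fold higher in M475R than in WT (1.84 to 5.96, adjusted p = 9.96e-06) and 2.58-fold higher than in the deletion (1.47 to 5, adjusted p = 0.00236). The second call was lost without M475R replicate 1 (adjusted p = 0.189), with the replicate block (0.169), with limma (0.158) and with a biological CV fixed at 20% (0.322). DESeq2 gave HOR2 log2 fold changes of 1.61 for M475R against WT and 1.32 for M475R against the deletion, with no adjusted p in either comparison. HOR2 could therefore not be called by DESeq2, which called 0 of the 18 genes in both. With DESeq2, 1 gene (HOR2) had an unadjusted p under 0.05 against WT and 0 against the deletion. The HOR2 call against WT was kept with limma (adjusted p = 0.044) and with a biological CV fixed at 20% (0.0301).

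In the sensing list, 5 of 10 genes were tested and 0 called in any comparison. Among them, KCS1, an inositol hexakisphosphate kinase, had 445 and 8 counts in M475R, 4 in the deletion, and 14 and 7 in WT. The deletion library was the lowest for it, at 10.9 FPKM, and M475R against the deletion gave a log2 fold change of 1.61 ± 0.59 SE (adjusted p = 0.0585), just outside the threshold. KCS1 is named here after its values were seen. Tested genes of the sensing list also included PHO81, PHO85, PHO2 and VIP1.

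In the low-affinity transport and membrane list, 6 of 8 were tested and 0 were called, with log2 fold changes for M475R against WT between -0.46 and -0.13. The quartiles of all tested genes were -0.35 and 0.42 in that comparison. The list ran from -0.57 to 0.17 for M475R against the deletion and from -0.435 to 0.307 for the deletion against WT. In the polyphosphate turnover list, 4 of 5 were tested and 0 were called (smallest adjusted p for M475R against WT 0.435, PPX1, an exopolyphosphatase). In the list of other phosphatases, PHO13 alone was tested, and PHO3 was not analysed here. In the list of other Pho4 targets, 4 of 11 were tested, with HOR2 the 1 called.

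The secreted acid phosphatase genes PHO11 and PHO12 are near-identical copies. Each had 119.5 and 1.5 expected counts in M475R, 5.5 in the deletion, and 4 and 1 in WT. The values are equal for both genes in every library, so their reads cannot be assigned to one or the other. Neither was tested. PHM6, a gene of unknown function induced by phosphate starvation, had 3 and 0 counts in M475R and 0 in the deletion and in both WT libraries.

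**Figure D5:**
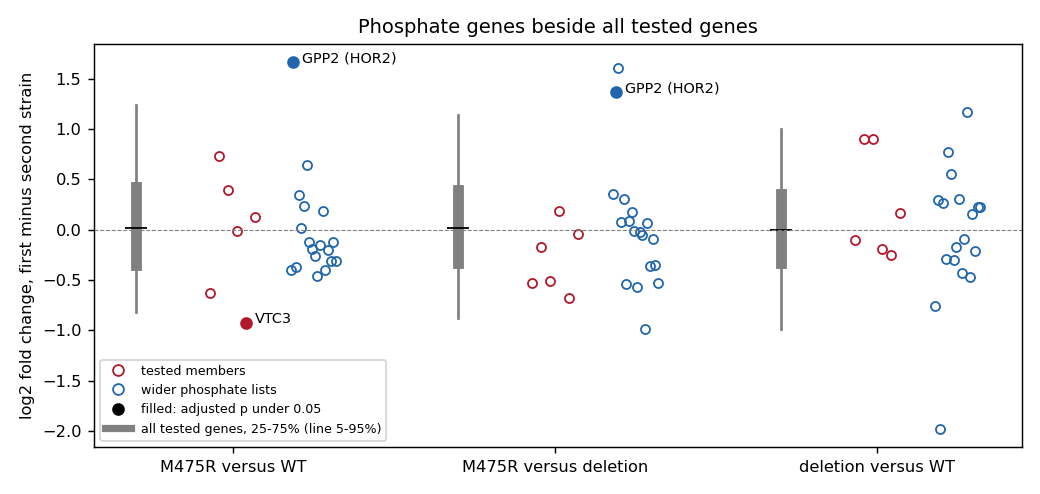
Log2 fold changes of the 6 tested members (red) and 18 tested genes of the wider phosphate lists (blue) in 3 comparisons, filled where the adjusted p is under 0.05, with the spread of all tested genes in grey. VTC3 at -0.93 and HOR2 (GPP2) at 1.66 are the genes called for M475R against WT.

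Genes next to the members on the chromosome were read for M475R against WT and for the deletion against WT, taking gene order from assembly R64 of strain S288C. The 10 tested neighbours of VTC3 had a median log2 fold change of 0.22 for M475R against WT, with 7 of the 10 above WT, and of 0.47 for the deletion against WT, with 6 above. PHO84 is the gene of rank 11 from an end of chromosome XIII, and 5 of its 10 tested neighbours lay above WT in M475R (median -0.02) and 6 in the deletion (median 0.22). PHO89 has rank 8 on chromosome II, and 0 of its 5 tested neighbours lay above WT in M475R (median -0.44) and 1 in the deletion (median -0.42).

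By distance between strain levels (log2 CPM centred over the 3 strains), the tested genes most like VTC3 were MDM32 (0.0436), DBP3 (0.0506) and RPL33B (0.0516). Those most like PHO84 were ADE8 (0.0264), IMD3 (0.0432) and LEU9 (0.0465), and those most like VTC1 were BNI4 (0.0032), RSR1 (0.0097) and ATG27 (0.029). Each distance rests on 3 strain levels, and the closest genes were taken from 2907 or 2908 candidates. VTC1 had 14 counts in the deletion and 10 pooled in WT, and PHO84 had 7 and 10. Counting error is far wider than these distances, so the names carry no claim of shared behaviour.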

How the data were processed

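The authors' deposited pairwise tables give an expected count per gene and library, not always whole, and an FPKM per library, in which a gene at 0 is written 0.001. The authors' log2 ratio, p-value and FDR score of each pair stand beside them per the file headers. FDR values above 1 occur in the deposited tables, so that score was not used as a p-value. Per the submitters' processing notes, BWA and Bowtie were used, and no source here gives the build, annotation or counter. Gene identifiers carry CEN.PK113-7D, and 5515 of 6032 matched the R64 gene table, used for names and gene order only. Columns of the 7 full tables and 6 filtered lists were matched to samples by name.

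Expected counts were rounded, and edgeR 4.0.16 (R 4.3.3, quasi-likelihood test, TMM, filterByExpr) fitted all 5 libraries at once. Library sizes were totals of the 2909 tested genes, and p-values were Benjamini-Hochberg adjusted over them and called under 0.05. The common dispersion was 0.00101, a biological CV of 3.18%, with infinite prior degrees of freedom, so p-values and SE carry little beyond counting error. The lone deletion library is taken to vary as the other strains do. Ratios pool counts over scaled library sizes, with exact 95% conditional binomial intervals, so M475R ratios mostly reflect replicate 1. Intervals and floors cover counting error only, as PCR copies are not independent molecules. limma 3.58.1 and DESeq2 1.42.0 were alternatives. The fit was also run on simulated counts, drawn with a spread close to the fitted one. That run cannot show whether its p-values hold under wider variation between cultures. The members and lists were chosen with earlier results of these data known. All members are named, as is any gene of the wider lists that was called, and the likeness and neighbour rules were set alongside.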

Additional observations from a re-analysis of the deposited data

How the results depend on the processing

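VTC3 was lower in M475R than in WT under all 14 alternatives (log2 fold change -0.96 to -0.54) and kept its call in 9 (adjusted p over all 14, 0.00347 to 0.558). The number of members called for M475R against WT became 0 with DESeq2, a biological CV fixed at 20% or limma, and ranged from 0 to 1 when 1 library was left out, with 0 without M475R replicate 1 or WT replicate 1. Of 228 alternative values of tested members, 223 stayed on the same side of the threshold, 5 lost a call (all VTC3), 0 gained one, and 19 had another sign, none of them called. Genes called for M475R against WT, M475R against the deletion and the deletion against WT numbered 540, 299 and 20. With DESeq2 they were 126, 69 and 4, with the fixed CV 84, 50 and 3, and with limma 89, 17 and 2. Leaving out 1 library gave 176 to 518, 105 to 313 and 9 to 17 genes. With total count scaling the split for M475R against the deletion was 156 higher and 145 lower, in place of 119 and 180. With the replicate block, 486, 156 and 11 genes were called, and the VTC3 call stayed (adjusted p = 0.0298). The block pairs libraries by number only (correlation of WT and M475R deviations -0.03). Without the filter, the median over all genes for M475R against WT moved to 0.15 and for M475R against the deletion to 0.12. The causes were not tested. Promoter motif counts were not run, since no genome of the authors' build was used here. Depth limits PHO84, PHO89 and SPL2 most.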
